A study of Mus musculus with 6 samples.

Results

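The 9 genes described here encode glycerophosphodiesterases and related enzymes that cleave phosphodiester bonds in lipids or in glycosylphosphatidylinositol (GPI) anchors: Gdpd2, Gdpd5, Gde1, Gdpd1, Gdpd3, Gpcpd1, Enpp6, Enpp2 and Gpld1. They were chosen by name and located by symbol in the GENCODE M21 annotation of the mouse mm10 build, among 31266 genes that could be given a value. The 6 RNA-seq libraries came from oligodendrocyte precursor cells (OPCs) of C57BL/6 mouse pups at postnatal day 0.5. GDE3 KO (3 libraries) carried a knockout of GDE3, the protein encoded by Gdpd2, and WT (3 libraries) did not. In both genotypes the OPCs were selected from spinal cord with the A2B5 surface marker and then cultured for 16 h under proliferative conditions. The medium held PDGF and CNTF at 10 ng/mL each and forskolin at 5 µM, so both genotypes were exposed to added CNTF throughout. Whether a library held 1 pup or several pooled was not given in the labels, so a p-value here speaks only of how far these libraries varied. In bulk libraries, fewer cells of a type and less RNA per cell cannot be told apart.

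GDE2 and GDE3 are multi-pass membrane enzymes with an extracellular catalytic domain that cleave GPI anchors and so release proteins from the cell surface. Their relatives act on small lipids: some split glycerophosphocholine or glycerophosphoinositol, others remove the head group of lysophospholipids and yield lysophosphatidic acid, a signalling lipid. In the oligodendrocyte lineage ENPP6 is known as a marker of newly differentiating cells, and ENPP2 (autotaxin) as a secreted product of premyelinating and myelinating cells.

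All 8 OPC markers averaged 1 FPKM or more, and their sum was 1130 to 1405 FPKM in KO and 1010 to 1519 FPKM in WT libraries. FPKM is a fragment density per length of transcript and per size of library, so levels can be set side by side between genes, apart from bases left unassembled. Other lineages were present as well: the 10 premyelinating and myelinating oligodendrocyte markers summed to 412 to 543 FPKM in KO and 511 to 545 FPKM in WT. Of 8 microglial and macrophage markers, 7 averaged 1 FPKM or more. The sum of the 8 was 97.4 to 178 FPKM in KO against 53.0 to 77.5 FPKM in WT, without overlap. Taken singly, C1qa, C1qb, C1qc, Tyrobp and Laptm5 did not overlap between the genotypes, and Csf1r, Cx3cr1 and Aif1 did. Groups without overlap were seen in 5.06% of all tested genes. Astrocyte markers summed to 140 to 585 FPKM in KO and 88.8 to 417 FPKM in WT, and neuronal markers to 97.7 to 117 FPKM in KO and 106 to 185 FPKM in WT. Vascular and meningeal markers summed to 35.5 to 60.1 FPKM in KO and 41.8 to 47.4 FPKM in WT. The 3 choroid plexus and ependyma markers summed to 7.94 to 23.7 FPKM in KO and 6.76 to 19.5 FPKM in WT, all of it from Foxj1, with Ttr and Folr1 listed at 0 in all 6 libraries. Relative depth was 0.882 to 0.988 of the deepest library in KO and 0.759 to 1 in WT. WT replicate 1 stood apart. It was the shallowest, and 36.8% of its transcripts were shorter than 300 nt, against 2.16% to 6.61% in the other 5. It also listed Xist at 15.4 FPKM and the Y-linked Ddx3y at 0, where the other 5 listed Xist at 0 and Ddx3y at 6.96 to 9.90 FPKM. Gdpd2 lies on the X chromosome.

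The knockout was seen first in the structure of Gdpd2 (ENSMUSG00000019359.14, chrX:100729873-100738895, plus strand), whose reference transcript has 16 exons. The labels do not name the deleted exons. They were therefore read from the assemblies as exons with 5% or less of their bases assembled in every KO library and 100% in at least 2 WT libraries. Exons 8, 9 and 10 met this, and no test was made on them because the same values chose them. They lie at chrX:100733899-100734047 (149 nt), chrX:100734170-100734252 (83 nt) and chrX:100734364-100734514 (151 nt). Their GENCODE M21 sequences, on the plus strand, show the stretch of coding RNA that the KO assemblies lacked.
Gdpd2 exon 8: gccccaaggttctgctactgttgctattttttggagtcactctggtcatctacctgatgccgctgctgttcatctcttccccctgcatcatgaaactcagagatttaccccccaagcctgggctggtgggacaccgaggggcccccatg
Gdpd2 exon 9: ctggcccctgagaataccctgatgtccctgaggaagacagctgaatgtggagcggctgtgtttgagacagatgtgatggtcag
Gdpd2 exon 10: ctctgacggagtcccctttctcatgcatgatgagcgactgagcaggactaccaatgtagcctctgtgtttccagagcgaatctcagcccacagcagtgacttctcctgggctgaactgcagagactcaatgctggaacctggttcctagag

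Over these exons the mean level, from transcripts of any length, was 0, 0 and 0.0183 FPKM in KO, against 10.0, 3.46 and 3.74 FPKM in WT. The value of KO replicate 3 came from 2.68% of exon 8, the end of a transcript that ran from exon 4. The WT libraries were not alike either. In WT replicate 1 the only Gdpd2 transcript was a 145 nt piece over parts of exons 8 and 10 and all of exon 9, at 26.5 FPKM with the authors' assembler giving an interval of 9.39 to 43.6 FPKM. No other exon of Gdpd2 was assembled in that library. WT replicates 2 and 3 assembled 15 and 14 of the 16 exons in full, against 6, 12 and 11 in KO replicates 1 to 3 and 1 in WT replicate 1.

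**Figure D1:**
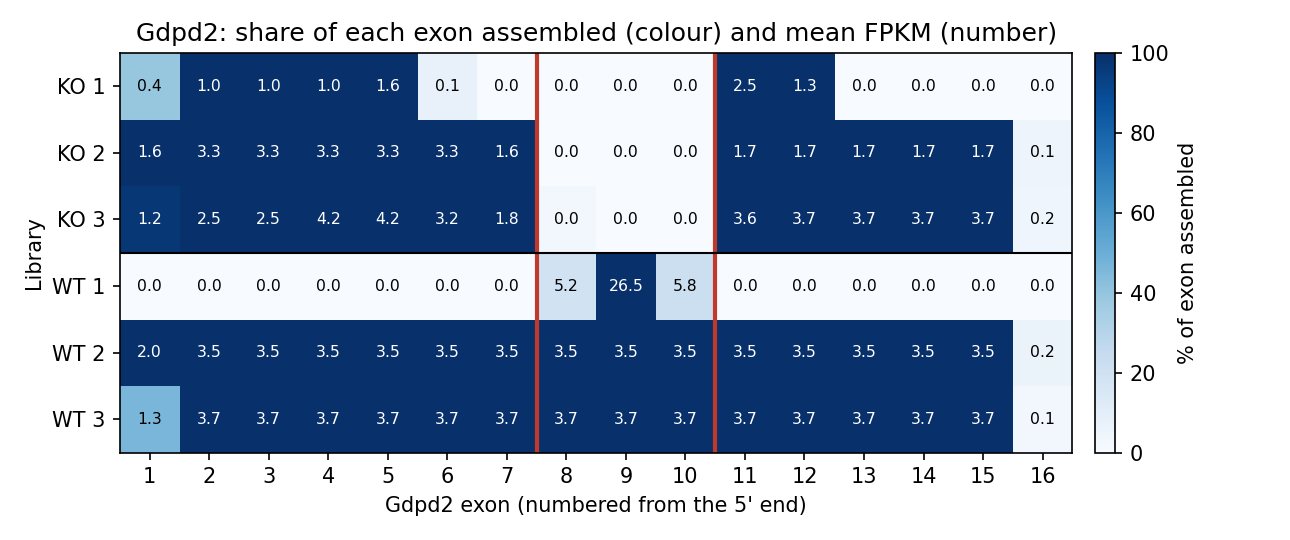
Gdpd2 exon by exon in each library, with exons 1 to 16 across and the KO libraries above the WT libraries. Colour gives the percentage of the exon assembled on the gene's strand and the number its mean FPKM, from transcripts of any length; red lines enclose exons 8 to 10, which were at or near 0 in all 3 KO libraries, while exons 2 to 5, 11 and 12 were assembled in full there.

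Gdpd2 RNA outside the deletion remained measurable in KO. Over the other 13 exons the mean was 0.951, 2.07 and 2.53 FPKM in KO, against 0, 2.85 and 2.91 FPKM in WT. WT replicates 2 and 3 were above all KO libraries, and WT replicate 1, with nothing assembled there, was below them. The difference, KO minus WT, was -0.07 FPKM (exact two-sided permutation test, p = 1; the smallest p that 3 against 3 libraries can give is 0.1). Without WT replicate 1 it was -1.03 FPKM (exact p = 0.2), and without both replicate 1 libraries -0.58 FPKM (exact p = 0.333). It turned positive without KO replicate 1 (0.38 FPKM), WT replicate 2 (0.40 FPKM) or WT replicate 3 (0.43 FPKM).

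The KO assemblies joined exons across the gap. Each KO library held an intron absent from all 3 WT assemblies and from the annotation that ended at the start of exon 11. Exon 5 was joined to exon 11 in KO replicate 1 (1.15 FPKM) and KO replicate 3 (1.05 FPKM). Exon 6 was joined to exon 11 in KO replicate 2 (1.72 FPKM) and KO replicate 3 (1.42 FPKM). The annotated introns from exon 8 to 9 and from 9 to 10 were found in 0 KO and 3 WT libraries, and the one from exon 10 to 11 in 0 KO and 2 WT libraries. The annotated intron from exon 7 to 8 was found in 1 KO and 2 WT libraries. The KO library was replicate 3 (1.76 FPKM), whose transcript ended within exon 8. The joins are shown with the last 30 bases of the upstream exon in lower case and the first 30 bases of exon 11 in capitals, from the GENCODE M21 transcript, plus strand.
Exon 5 to 11, KO (chrX:100733102-100736280): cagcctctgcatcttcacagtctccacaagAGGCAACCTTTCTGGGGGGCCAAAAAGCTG
Exon 6 to 11, KO (chrX:100733443-100736280): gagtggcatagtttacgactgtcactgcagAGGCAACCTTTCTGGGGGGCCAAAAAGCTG
Exon 10 to 11, WT (chrX:100734485-100736280): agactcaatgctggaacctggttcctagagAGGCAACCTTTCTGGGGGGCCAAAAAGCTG

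The reading frame of these joins was computed on the annotated transcript, with all other exons as annotated. The exon 5 to 11 join leaves out 576 nt and the exon 6 to 11 join 477 nt, both multiples of 3. From the annotated start codon the first would hold 347 codons before its first stop and the second 380, against 539 in the annotated transcript, with the stop in exon 16 in all 3 cases. The assembled transcripts differed from this structure. Those with the exon 5 to 11 join ran from exon 11 into intron 11, so none had the 347-codon form. The exon 6 to 11 transcript of KO replicate 2 also held introns 3, 4 and 11. Only that of KO replicate 3 (1.42 FPKM) also joined exon 11 to exon 12. Even this transcript used the annotated first intron from chrX:100730068, not that of the reference transcript. It ended at chrX:100738258, early in exon 16 (chrX:100738230-100738894). Whether it held the full 380-codon frame was not determined. Leaving out exons 8 to 10 alone removes 383 nt, which is not a multiple of 3, and puts the first stop in exon 11 after 198 codons. No KO library held a join from exon 7 to exon 11. Whether any protein is made from these RNAs was not measured.

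KO assemblies also held RNA from intron 10, between the deleted exons and exon 11 (chrX:100734515-100736250, 1736 nt). On the strand of Gdpd2, 17.2%, 17.3% and 56.2% of its bases were assembled in KO replicates 1 to 3 and 0% in each WT library. KO replicate 1 had a 268 nt unspliced piece at 2.01 FPKM (assembler's interval 0.713 to 3.31) and KO replicate 2 a 301 nt piece at 5.79 FPKM (3.81 to 7.77). In KO replicate 3 a 976 nt exon from the same stretch began a pair of spliced transcripts of 6 exons each, at 0.607 and 0.580 FPKM, that went on through exon 11 to exon 16. On this strand the pieces began within 300 nt of the end of exon 10, at chrX positions 100734771, 100734736 and 100734746. KO replicate 2 also held an unspliced 752 nt piece on the opposite strand (chrX:100735404-100736155), farther into the intron, at 1.21 FPKM. Whether the libraries kept strand information was not stated, so the strands of unspliced pieces are only as drawn by the assembler.

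Some other introns and the last exon of Gdpd2 also departed from the annotation. Intron 11 was at least partly assembled in every library except WT replicate 1, and intron 4 in KO replicates 2 and 3 and WT replicates 2 and 3. Introns 5 and 6 were assembled in KO replicate 2 and in no other library. The annotated first intron from chrX:100730068 was used in KO replicates 1 and 3 (0.971 and 1.42 FPKM) and in no WT library. The last exon, 665 nt long, was assembled mostly on the opposite strand, where the annotation has the antisense gene Gm14866. That strand gave 0.759, 3.28 and 3.55 FPKM over exon 16 in KO and 0, 4.11 and 4.52 FPKM in WT, against 0 to 0.159 FPKM in KO and 0 to 0.229 FPKM in WT on the strand of Gdpd2. The opposite-strand pieces over exon 16 were spliced, with 2 exons, in KO replicate 1 and WT replicate 3. Those in KO replicates 2 and 3 and WT replicate 2 were unspliced. Strands are again as drawn by the assembler, so in unspliced pieces reads of Gdpd2 and Gm14866 cannot be told apart.

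Each gene's level was then taken as the mean FPKM over exonic bases shared with no other annotated gene, from transcripts of 300 nt or more. In the order of their means over 6 libraries the levels ran Gde1, Enpp2, Gdpd1, Gpcpd1, Enpp6, Gdpd5, Gdpd2, Gpld1 and Gdpd3. The ranges of neighbours did not overlap from Gde1 to Gdpd1 and on to Gpcpd1, nor between Enpp6 and Gdpd5. Gpcpd1 and Enpp6 overlapped in range, although Gpcpd1 was the higher of the pair in 6 of 6 libraries. From Gdpd5 downward each neighbouring pair overlapped.

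**Figure D2:**
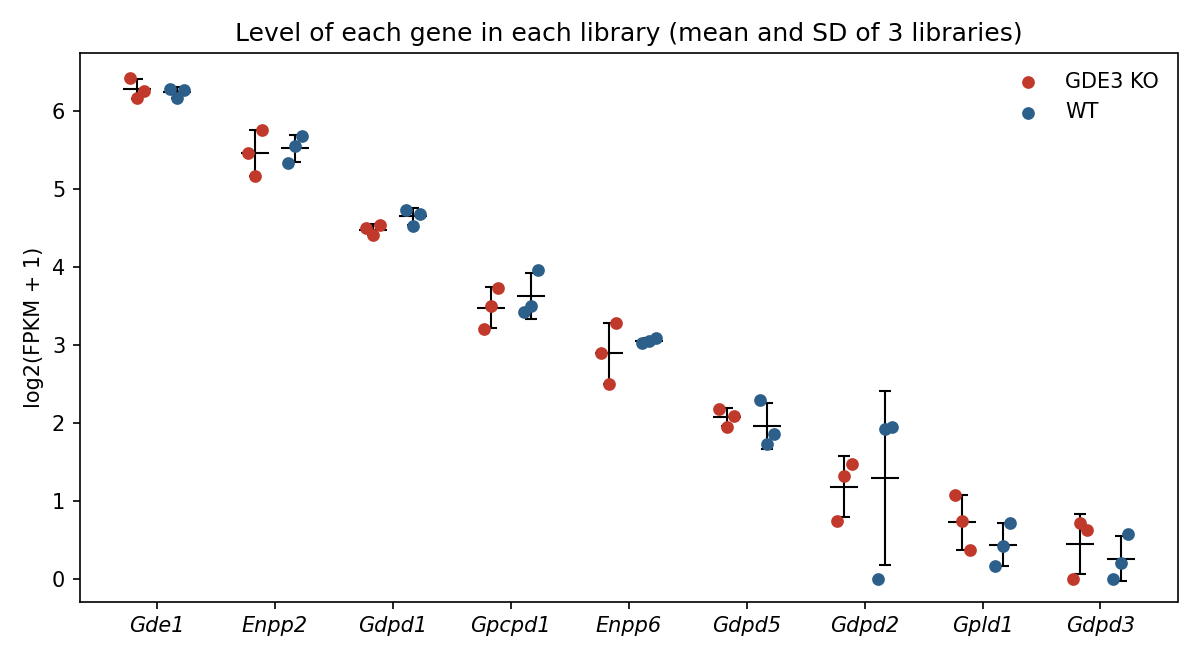
Level of the 9 genes in each library as log2(FPKM + 1), ordered by mean, with GDE3 KO in red on the left of each pair and WT in blue on the right; bars give the mean and SD of 3 libraries. The ranges of the KO and WT points overlap for every gene, and WT replicate 1 is the Gdpd2 point at 0.

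KO and WT were compared over all 12045 genes that averaged at least 1 FPKM, by limma's moderated test on log2(FPKM + 1) with Benjamini-Hochberg adjustment. Of the 9 genes 7 entered the test, and Gdpd3 and Gpld1 averaged below 1 FPKM. At an adjusted p under 0.05, 0 of the 7 were higher and 0 were lower in KO; over all tested genes the called shares were 0% higher and 0.00830% lower, which is 1 gene. All 7 had the same adjusted p, 1.00 to 3 digits, and 0 of 7 reached an unadjusted p under 0.05, against 1.62% of all tested genes. The KO and WT libraries overlapped for all 9 genes, while 5.06% of tested genes had groups without overlap. The median log2 difference, KO minus WT, was -0.11 over the 7 genes and -0.01 over all tested genes. The part of the microglial markers, whose sum was higher in all KO than in all WT libraries, in the members' values was not tested.

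**Figure D3:**
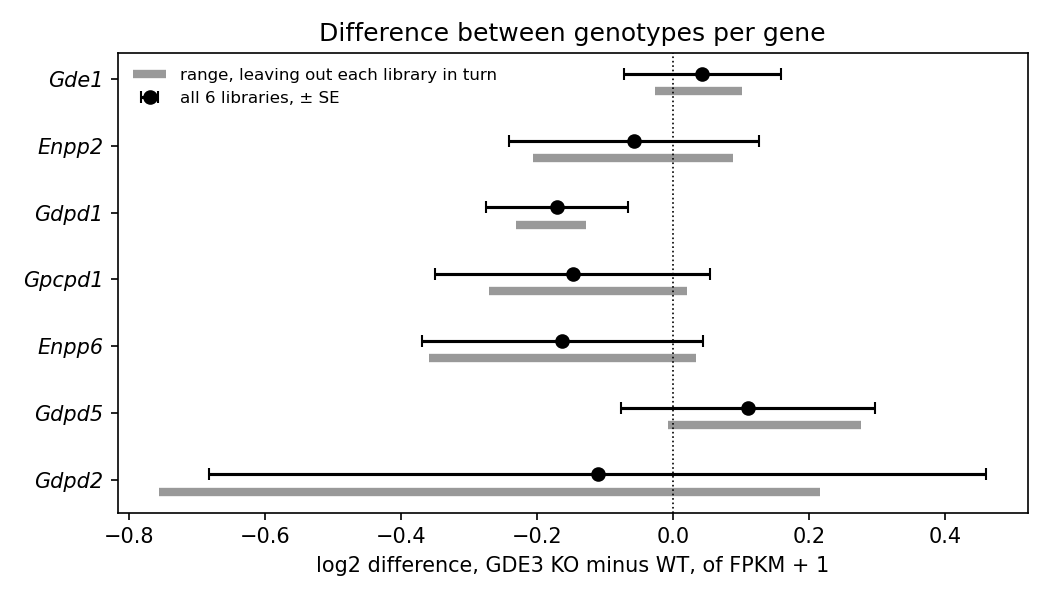
Difference between genotypes for the 7 tested genes, as log2(FPKM + 1) in KO minus WT. Points with bars give the limma estimate from 6 libraries with its SE, and grey bars the range when each library was left out in turn; the grey range of Gdpd1 alone stays on one side of 0, at -0.23 to -0.13.

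Gdpd2 as a whole gene, deleted exons included, was at 0.667, 1.50 and 1.78 FPKM in KO, against 0, 2.79 and 2.85 FPKM in WT. Its log2 difference was -0.11 ± 0.57 (SE). Without WT replicate 1, the library with no Gdpd2 transcript of 300 nt or more, it was -0.76 (limma, unadjusted p = 0.0327), and without both replicate 1 libraries -0.54 (limma, unadjusted p = 0.0192). Neither passed the adjustment. The deleted exons were chosen as absent in KO, so part of each whole-gene difference and its p-value was fixed by that choice. Differences over the exons away from the deletion, with exact tests, are given above.

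Gdpd5 encodes GDE2, the relative of GDE3 that also cleaves GPI anchors. It had 3.51, 2.85 and 3.23 FPKM in KO and 3.89, 2.30 and 2.62 FPKM in WT (3.20 ± 0.333 and 2.94 ± 0.842, SD, n = 3 each). The KO values lay inside the range of the WT values. The log2 difference was 0.11 ± 0.19 (SE; limma, unadjusted p = 0.579, adjusted p = 1.00), and -0.01 without WT replicate 2. All 17 annotated introns were assembled in KO replicates 1 and 3 and in WT replicates 2 and 3. KO replicate 2 held 14 of them and WT replicate 1 held 15.

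Gde1 encodes GDE1, a membrane phosphodiesterase that acts on glycerophosphoinositol and on precursors of N-acylethanolamines. It was the most abundant of the 9 genes, with 84.6, 70.7 and 75.3 FPKM in KO against 76.7, 70.4 and 76.2 FPKM in WT (76.9 ± 7.06 and 74.4 ± 3.47, SD, n = 3 each). The highest value was in KO replicate 1 and the lowest in WT replicate 2, with the rest in between. The log2 difference was 0.04 ± 0.11 (SE; limma, unadjusted p = 0.722), and -0.03 without KO replicate 1. The whole annotated chain of 6 exons was assembled as 1 transcript in each of 6 libraries.

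Gdpd1 and Gdpd3 encode GDE4 and GDE7, lysophospholipase D type enzymes that yield lysophosphatidic acid and N-acylethanolamines inside cells. Gdpd1 had 21.6, 20.1 and 22.1 FPKM in KO and 25.6, 22.07 and 24.7 FPKM in WT (21.3 ± 1.03 and 24.1 ± 1.83, SD, n = 3 each). WT replicates 1 and 3 were above all KO libraries, and WT replicate 2 lay just below KO replicate 3. Among libraries of the same replicate number, KO was below WT in 3 of 3 pairs, where the smallest possible sign-flip p is 0.25. The share of all genes with such pairs was not counted. The log2 difference of -0.17 ± 0.10 (SE) had the smallest p of the 7 (limma, unadjusted p = 0.151, adjusted p = 1.00). Blocking on replicate number gave an unadjusted p of 0.0625 and an adjusted p of 0.809 (limma). All 10 exons were joined as annotated in every library. Gdpd3 was listed at 0, 0.638 and 0.538 FPKM in KO and at 0, 0.145 and 0.487 FPKM in WT, and only 0 to 8 of its 9 introns were found in a library. Both replicate 1 libraries had no Gdpd3 transcript of 300 nt or more on its strand. Averaging below 1 FPKM, Gdpd3 was not tested for a difference between the genotypes in the main fit.

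**Figure D4:**
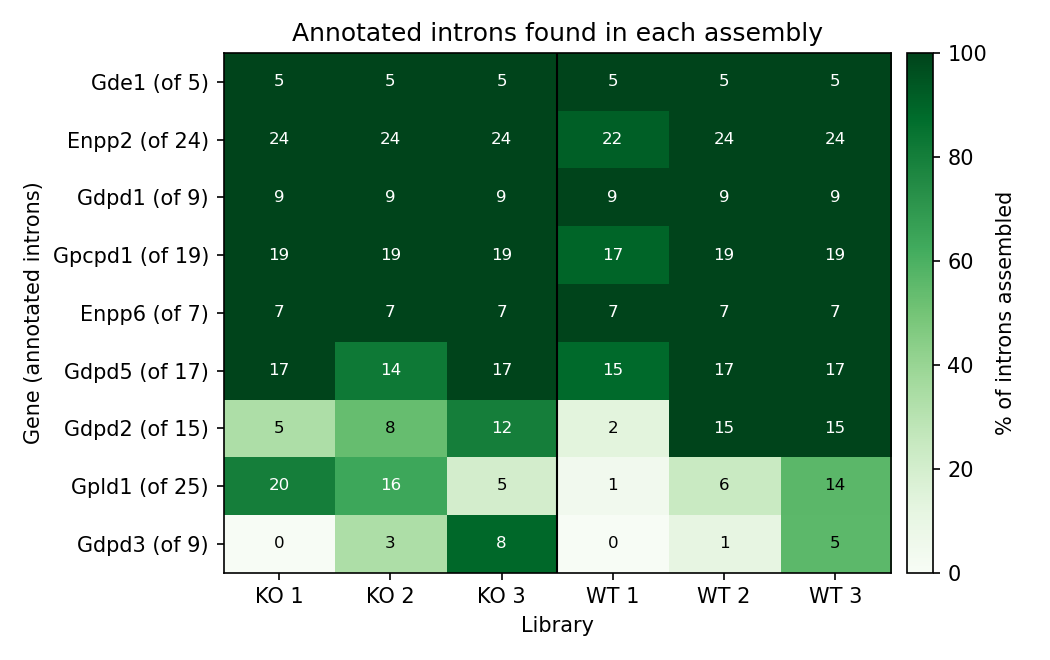
Annotated introns of each gene's reference transcript found in each assembly, as counts (numbers) and percent of the annotated total (colour), with KO libraries on the left. Gde1, Gdpd1 and Enpp6 were complete in 6 of 6 libraries, while Gpld1 ranged from 1 to 20 of 25 introns and Gdpd3 from 0 to 8 of 9.

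Gpcpd1 encodes GDE5, a cytosolic enzyme that splits glycerophosphocholine into glycerol phosphate and choline. It had 8.24, 10.3 and 12.2 FPKM in KO and 9.70, 10.3 and 14.6 FPKM in WT (10.2 ± 1.98 and 11.5 ± 2.65, SD, n = 3 each). Replicate 3 was the highest and replicate 1 the lowest in both genotypes. The log2 difference was -0.15 ± 0.20 (SE; limma, unadjusted p = 0.492), and 0.02 without WT replicate 3.

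Enpp6 encodes a GPI-anchored choline-specific glycerophosphodiesterase. It had 6.41, 4.65 and 8.73 FPKM in KO, against 7.12, 7.28 and 7.51 FPKM in WT (6.60 ± 2.05 and 7.30 ± 0.196, SD, n = 3 each). The WT libraries lay close together and inside the KO range. The log2 difference was -0.16 ± 0.21 (SE; limma, unadjusted p = 0.459), and 0.03 without KO replicate 2.

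Enpp2 encodes autotaxin, the secreted lysophospholipase D that makes lysophosphatidic acid outside cells. It had 42.9, 35.0 and 53.1 FPKM in KO and 39.1, 45.9 and 50.2 FPKM in WT (43.6 ± 9.07 and 45.1 ± 5.56, SD, n = 3 each). KO libraries held both the highest and the lowest value. The log2 difference was -0.06 ± 0.18 (SE; limma, unadjusted p = 0.763); it was 0.09 without KO replicate 2 and 0.02 without WT replicate 3. Enpp2 is also a gene of the choroid plexus; the part of such cells in its level, with Foxj1 at 6.76 to 23.7 FPKM and Ttr and Folr1 at 0, was not tested.

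Gpld1 encodes the GPI-specific phospholipase D, a secreted enzyme best known from serum. Its last exon (chr13:24990036-24992501, plus strand, 2466 nt) lies inside the last exon of Mrs2 on the opposite strand (chr13:24987483-24993188, minus strand). In every library an unspliced piece of 4983 to 5019 nt, drawn on the strand of Gpld1 and starting near the end of Mrs2, covered this exon, at 14.1, 16.8 and 16.7 FPKM in KO and 15.0, 18.1 and 17.7 FPKM in WT. No library had a junction into the last exon of Gpld1. Whether the libraries kept strand information was not stated, so reads of the overlapping genes cannot be told apart. The exonic bases that Gpld1 shares with no other gene were at 1.09, 0.661 and 0.288 FPKM in KO and 0.122, 0.336 and 0.642 FPKM in WT. KO replicate 1 was the highest and WT replicate 1 the lowest, and the other 4 overlapped.

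Isoforms were compared at splice choices, since transcript identifiers are not shared between the assemblies. At such a choice 1 end of an intron is shared and the other differs, and each form's share is its part of the summed FPKM. The assemblies held 10 such pairs of introns in the 9 genes, and 8 had at least 1 FPKM in every library. They came from 6 choices, in Enpp2, Gpcpd1 and Enpp6. None of the 8 passed (exact two-sided permutation tests, p = 0.6 to 1, adjusted p = 1), and 3 against 3 libraries cannot go below 0.1. Annotated introns without an alternative were not counted.

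The first choice in Enpp2 is a 12 nt alternative exon end (chr15:54862498-54862529, minus strand, with the 12 nt in capitals).
Enpp2 exon end: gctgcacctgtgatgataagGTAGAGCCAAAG
Transcripts without these bases made up 0%, 28.4% and 15.6% of FPKM in KO and 0%, 19.6% and 27.4% in WT. Both replicate 1 libraries held only the longer form, and the other 4 held both. A 75 nt cassette exon (chr15:54851348-54851422, minus strand) was included in KO replicate 3 alone, at 15.6% of FPKM. The same transcript of KO replicate 3 (8.92 FPKM) carried the cassette exon and lacked the 12 nt.

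In Gpcpd1 a 3 nt alternative exon start was found (chr2:132572235-132572257, minus strand, with the 3 nt in capitals).
Gpcpd1 exon start: CAGaaatcctaaaattccatcag
Transcripts with these bases made up 0%, 70.1% and 22.7% of FPKM in KO and 43.2%, 46.0% and 22.9% in WT. The KO values spanned the WT values on both sides. A 76 nt exon (chr2:132558607-132558682) was left out in 0%, 29.9% and 22.7% of FPKM in KO and in 0%, 14.9% and 16.4% in WT, again with both replicate 1 libraries at 0. A 124 nt exon (chr2:132553957-132554080) was left out in KO replicate 2 alone, at 36.3% of FPKM. In Enpp6 an early alternative last exon was used in KO replicate 2 alone, at 51.5% of FPKM. Enpp6 transcripts without exon 8, the annotated last exon, were not limited to this choice. The level fell from 15.8 FPKM over exon 1 to 7.20 FPKM over exon 8 in KO replicate 3. In WT replicate 2 it fell from 14.0 FPKM over exon 2 to 6.16 FPKM over exon 8.

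**Figure D5:**
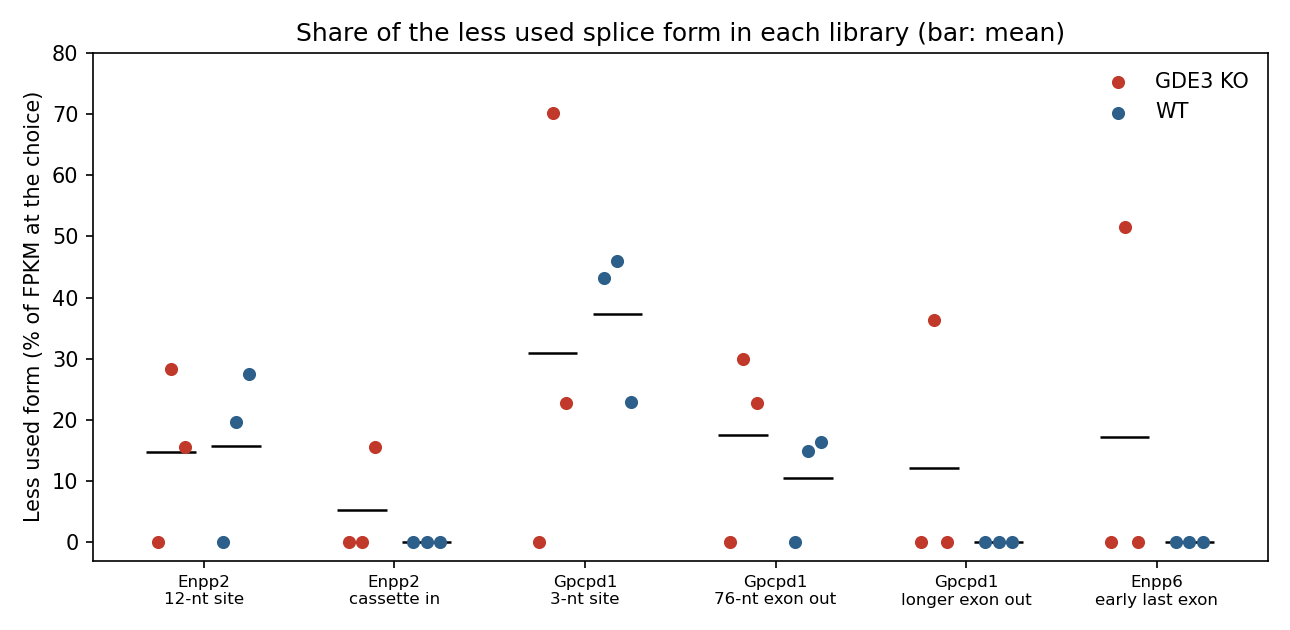
Share of the less used form at 6 splice choices in each library, in percent of the FPKM at the choice, with GDE3 KO in red on the left of each pair and WT in blue on the right; bars give the mean of 3 libraries and the longer exon of Gpcpd1 is the 124 nt one. At these 6 choices the 3 forms seen in a single library were in KO libraries (15.6%, 36.3% and 51.5%), and KO and WT points overlap at every choice. Enpp6 transcripts that lacked the last exon without using this choice are not shown.

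Genes that act beside these enzymes were described from 6 lists of 71 genes, of which 67 had a value and 52 were tested. At an adjusted p under 0.05, 0 of the 52 were higher and 0 lower in KO. In the glycerophosphocholine, choline and phosphatidylcholine list 23 of 27 genes were tested, with a median log2 difference of 0.09. Its smallest unadjusted p belonged to Slc44a1, a choline transporter, with 14.0 ± 3.43 FPKM in KO and 17.8 ± 2.79 FPKM in WT (limma, unadjusted p = 0.139). Pnpla6, which makes glycerophosphocholine by deacylation, had 8.43 ± 1.98 FPKM in KO and 6.93 ± 0.678 FPKM in WT (limma, unadjusted p = 0.228).

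Among lysophosphatidic acid receptors and phosphatases 13 of 16 genes were tested, with a median log2 difference of 0.03. Plppr5, a lipid phosphatase-related membrane protein, had 3.23, 2.62 and 4.93 FPKM in KO and 7.55, 5.44 and 6.32 FPKM in WT. Its groups did not overlap, as was so for 5.06% of all tested genes. The log2 difference of -0.72 ± 0.22 (SE) had an unadjusted p of 0.0168 and an adjusted p of 1.00 (limma). Of all tested genes 1.62% had an unadjusted p under 0.05. Plpp1, a phosphatase of lysophosphatidic acid, had 11.1, 10.1 and 8.26 FPKM in KO and 6.90, 8.66 and 0 FPKM in WT, with WT replicate 3 listed at 0.

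In the N-acylethanolamine route 4 of 8 genes were tested, with a median log2 difference of 0.05. Abhd4, a lipase upstream of GDE1, had 66.6 ± 8.10 FPKM in KO and 59.0 ± 10.3 FPKM in WT, and Naaa, which breaks down N-acylethanolamines, 4.69 ± 2.01 FPKM in KO and 3.45 ± 0.518 FPKM in WT. Of the other NPP and GDE family genes 2 of 6 were tested, with a median of -0.13. Enpp5 had 6.54 ± 0.550 FPKM in KO and 7.64 ± 0.545 FPKM in WT, and Enpp4 3.58 ± 0.183 FPKM in KO and 3.81 ± 0.391 FPKM in WT. Gdpd4, the remaining family member of the GDE group, was listed at 0 in all 6 libraries.

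All 7 surface proteins reported as GDE2 or GDE3 substrates were tested, with a median log2 difference of 0.09. Cntfr, the CNTF receptor subunit named in the study's title, had 13.4, 18.4 and 15.9 FPKM in KO and 14.9, 16.2 and 13.2 FPKM in WT, a log2 difference of 0.09 ± 0.15 (SE; limma, unadjusted p = 0.558). Plaur, the urokinase receptor, had 7.43 ± 2.21 FPKM in KO and 5.52 ± 2.54 FPKM in WT. Gpc1, a glypican, had 37.3, 15.7 and 34.9 FPKM in KO and 35.3, 33.6 and 33.3 FPKM in WT, so that KO replicate 2 lay apart from the other 5. Of the other enzymes acting on GPI anchors or glypicans 3 of 7 were tested, with a median of -0.14. Pgap1, the inositol deacylase of GPI anchors, had 5.63 ± 0.739 FPKM in KO and 6.37 ± 1.55 FPKM in WT. Pgap2, which acts in remodelling of the anchor's lipid, had 0, 5.45 and 1.90 FPKM in KO and 6.58, 3.85 and 1.65 FPKM in WT. Notum, which acts on glypicans and Wnt proteins, was listed at 0 in all 6 libraries.

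The genes whose pattern over the 6 libraries was nearest to that of a member were found among the other 12044 tested genes, by the root mean square difference of deviations from their own mean on log2(FPKM + 1). For Gdpd1 they were Rab8b (0.0210) and Zbtb14 (0.0270), for Gdpd5 Park7 (0.0336) and Slc37a4 (0.0378), and for Gde1 Slc11a2 (0.0262) and Slc18b1 (0.0268). For Gpcpd1 they were Arfgef1 (0.0353) and Rock1 (0.0355), for Enpp6 Sema4d (0.0365) and Zfp446 (0.0616), and for Enpp2 Ddx51 (0.0337) and Cdk2 (0.0437). These 6 members' own deviations had root mean squares of 0.0869 (Gde1) to 0.242 (Enpp6). Gdpd2, with a library at 0, and the untested Gdpd3 and Gpld1 were not given neighbours.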

How the data were processed

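The submitters' processing notes name the mm10 build, Cufflinks 2.2.1, Cuffdiff 2.2.1, TopHat2 2.1.1 and FastQC, with no role or order. The authors deposited 1 transcript assembly per library, with an FPKM and an interval for each transcript inside a text column. No read counts were used, so depth was taken relative to the deepest library, as each library's coverage divided by FPKM (0.759 to 1). No count model was run. The members and gene lists were chosen with earlier results of these data known. Genes were assigned by the position of transcripts in the basic set of GENCODE M21. A gene's value is the mean, over at least 200 exonic bases shared with no other gene on either strand, of the summed FPKM of transcripts of 300 nt or more on its strand or unstranded; protein-coding and long noncoding genes were kept. Short pieces can carry very high FPKM, hence the minimum. Gdpd2 exons and splice choices used transcripts of any length. Genes averaging 1 FPKM or more were fitted with limma 3.58.1 (R 4.3.3, trend, log2(FPKM + 1), genotype only, Benjamini-Hochberg 0.05), tested on simulated data first; fold changes on this scale understate those of low genes. Single values used exact permutation tests (scipy 1.17.1). Named genes were the members, in each list the genes past the threshold and otherwise the 2 with the smallest unadjusted p, and the 2 nearest profiles per member; Cntfr (study title), Gdpd4 and Notum were named after their values were seen. KO and WT libraries with 1 replicate number shared their deviations from the group means (r = 0.369, 0.197 and 0.293 across genes, against -0.277 to 0.0234 for other pairs), so a fit with the replicate number as a block was an alternative, beside other pseudocounts, filters, scalings, gene values and leaving out libraries. Sequences came from the GENCODE M21 transcripts.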

Additional observations from a re-analysis of the deposited data

Results flagged for a closer look

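Signal outside the exon measurements was found in intron 10 of Gdpd2, next to the deleted exons: 17.2%, 17.3% and 56.2% of its bases were assembled on the gene's strand in KO replicates 1 to 3 and 0% in each of 3 WT libraries. KO replicate 2 also held a 752 nt piece drawn on the opposite strand. WT replicates 2 and 3 assembled 15 and 14 of the 16 exons in full, whereas WT replicate 1 held only a 145 nt piece of it. The difference was read from the assemblies and was not tested.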

How the results depend on the processing

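Over all tested genes, 0 were higher and 1 was lower in KO. The count of lower genes was 0 with a pseudocount of 0.1 or 5, with a minimum mean of 5 FPKM, with FPKM summed over transcripts and with the replicate block, and 2 with the highest transcript. The block left 0 members and 0 list genes past the threshold, as did all 20 alternatives of the fit, and 510 genes at an unadjusted p under 0.05, against 195 without it. Leaving out 1 library gave 0 to 11 higher and 1 to 6 lower genes, with 11 and 6 without KO replicate 1; without both replicate 1 libraries they were 18 and 9. Over all genes the median log2 difference was -0.25 with summed transcripts and -0.17 with the highest transcript, against -0.01.

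None of the 7 tested members kept its sign in every alternative. Gdpd2, at -0.11 in the main fit, turned to 0.48 with a pseudocount of 0.1 and 0.24 over assembled bases only. It was -0.65 with no length minimum (limma, unadjusted p = 0.0440), -0.75 with summed transcripts and -1.28 with the highest transcript. These last settings also take transcripts under 300 nt, such as the 145 nt piece of WT replicate 1. That piece lies within exons 8 to 10, chosen as absent in KO, so part of these values was fixed by that choice. Gdpd1 turned to 0.0055 with the highest transcript, Enpp6 to 0.017 with summed transcripts and Gde1 to -0.0058 without both replicate 1 libraries. Leaving out 1 library gave -0.76 to 0.22 for Gdpd2, -0.0072 to 0.28 for Gdpd5, -0.027 to 0.10 for Gde1, -0.27 to 0.020 for Gpcpd1, -0.36 to 0.033 for Enpp6 and -0.21 to 0.088 for Enpp2. The Gdpd2 exons away from the deletion ranged from -1.03 to 0.43 FPKM, and in replicate pairs (sign-flip test) p was 1. The difference over the deleted exons, whose sign their choice fixes, was -5.74 FPKM, -2.39 from transcripts of 300 nt or more, and -6.88 to -3.59 leaving out 1 library. The 12 nt choice of Enpp2 ranged from -8.86 to 6.32 percentage points and the 3 nt choice of Gpcpd1 from -26.0 to 9.07. The cause of these shifts was not tested. Low FPKM limits Gdpd2, Gdpd3 and Gpld1, and the fragmented assembly limits WT replicate 1.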
